A study of Mus musculus with 2 samples.

Results

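The insulin-like growth factor (IGF) system was described through 10 genes, chosen by symbol from the 28001 features listed identically in both count matrices: the ligands *Igf1* and *Igf2*, the receptors *Igf1r* and *Igf2r*, and the binding proteins *Igfbp2*, *Igfbp3*, *Igfbp4*, *Igfbp5*, *Igfbp6* and *Igfbp7*. All 10 were found in both matrices, and none of them was used to group or name cells. Single-cell RNA-seq had been done on tdTomato+ cells sorted from adult skeletal muscle of *Hic1CreERT2/CreERT2*;*Rosa26LSLtdTomato/tdTomato* mice on a C57BL/6J background. Both libraries thus share the same alleles, and neither has an unmodified *Hic1* locus by its label. They differ in when and in what doses tamoxifen (TAM) was given, and in the handling described next. In the E10-P56 library, pregnant dams received 7.5 mg of TAM in 300 uL of sunflower oil by gavage at E10. For tracing into adulthood, the paper's methods add progesterone to the TAM, delivery by caesarean section and fostering with a litter of another strain. In the adult pulse library, animals of 8 weeks received 2.5 mg of TAM per day in 100 uL of oil on 5 consecutive days. The sample labels give collection at P56 for both, while the paper's results describe a later collection for adult pulse cells, citing an earlier study.

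CreERT2 expressed from the *Hic1* locus switches on the reporter in cells that use *Hic1* when TAM is present, and their progeny keep it. A reporter-positive cell therefore records past or present *Hic1* expression in mesenchymal cells and is not by itself a cell type. The methods describe pooled tibialis anterior muscles and a gate that removed cells with endothelial and blood surface markers. There was 1 library for embryonic and 1 for adult labelling, and the Cell Ranger version was 5.0.0 for the former and 3.0.2 for the latter, so that labelling time, library, age and software version cannot be told apart. No test was possible, and every interval given is an exact 95% interval for counting error only.

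IGF1 and IGF2 are secreted peptides that act through the tyrosine kinase receptor encoded by *Igf1r*, while the receptor encoded by *Igf2r* carries IGF2 to the lysosome for destruction. The IGF binding proteins hold the ligands in tissue fluid and matrix and so limit or prolong their access to the receptor, and proteases release the ligand by cutting them. In muscle, IGF1 is known as a growth and repair factor for myofibres and their progenitors, and the connective tissue cells between fibres are among its sources.

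After cells with fewer than 1500 UMIs or more than 10% mitochondrial UMIs were set aside, E10-P56 kept 6087 cells and the adult pulse 8567, at medians of 7648 and 7344 UMIs per cell. The libraries shared 15 barcodes, of which 11 were kept in both. tdTomato stood at 1243 CPM, the UMIs of a gene over all UMIs of a population scaled to 1000000, in fibroblast-like cells of E10-P56 and 2061 CPM in those of the adult pulse, and *Hic1* at 46.6 and 43.5 CPM. Cells were named from marker genes into 11 types, of which fibroblast-like cells were by far the most numerous with 4144 and 7084 cells. The smallest populations were 20 endothelial-like cells in E10-P56 and 21 Schwann-like, 25 VSMC-like, 28 cycling-like and 36 perineurial-like cells in the adult pulse. VSMC stands for vascular smooth muscle cell, and SMCP for the smooth muscle cell progenitors of the study. The 8 SMCP markers counted stood together at 3682 and 3721 CPM in SMCP-like cells, below 7257 and 6397 CPM in pericyte-like cells. SMCP-like cells also had 9358 and 8589 CPM of the 8 VSMC markers. Their leading genes held *Dlk1*, *Adra2a* and *Rgs16*, which the paper describes in its hybrid cluster of pericyte and smooth muscle transcripts. Clusters 1 and 5 held 1598 and 1306 of the fibroblast-like cells of E10-P56 with 22 and 40 of the adult pulse, while clusters 0 and 3 held 2389 and 1390 of the adult pulse with 31 and 29 of E10-P56, so that the class is made up of different clusters in each library.

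Transcripts of fibroblasts were counted in every other cell type, and their level is given as a yardstick for free RNA and mixed droplets. For *Pdgfra*, *Dpt*, *Pi16* and *Clec3b*, the median level was between 4.79% and 31.9% of that in fibroblast-like cells across the other types of E10-P56, lowest in SMCP-like and highest in endoneurial-like cells. Among adult pulse cells it was between 6.12% and 37.5%, lowest in perineurial-like and again highest in endoneurial-like cells. *Pdgfra* alone stood at 160% and 128% of the fibroblast-like level in endoneurial-like cells of E10-P56 and the adult pulse. The 8 fibroblast markers stood together at 21675 and 35290 CPM there, beside 29297 and 37493 CPM in fibroblast-like cells. For this type the yardstick cannot part free RNA from the cells' own transcripts. The part of fibroblast transcripts in the IGF gene levels of the other types was not tested.

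Each of the 10 genes stood at its highest level among named types outside the fibroblast-like cells in both libraries, 0 of 10 being highest there. Few genes of any kind were highest in fibroblast-like cells. Of 11663 genes with at least 100 UMIs over the types of each library, 5.53% were highest there in either. For 7 of the 10 the same cell type came first in both libraries, a number that fell to 4 with a UMI minimum of 3000 and to 2 with each library clustered alone. Among the 9 that have at least 100 UMIs over the types it was 6, beside 37.1% of the 11663 genes. The 7 first places were osteochondral-like cells for *Igf2* and *Igfbp2*, endothelial-like cells for *Igf1r*, pericyte-like cells for *Igf2r*, endoneurial-like cells for *Igfbp4*, perineurial-like cells for *Igfbp6* and SMCP-like cells for *Igfbp7*. Osteochondral-like cells of E10-P56 and the adult pulse had 7278 and 3879 CPM of the 10 tenocyte markers together. Their own 6 markers counted stood at 2562 and 1736 CPM, and the part of this in their IGF gene levels was not tested. The first place of *Igfbp2* rests on 5 and 3 UMIs, and in both libraries the interval of its ratio to the next type held 1. For *Igf1*, *Igfbp3* and *Igfbp5* the first type differed between the libraries. The heat map of levels by cell type shows these positions side by side.

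**Figure D1:**
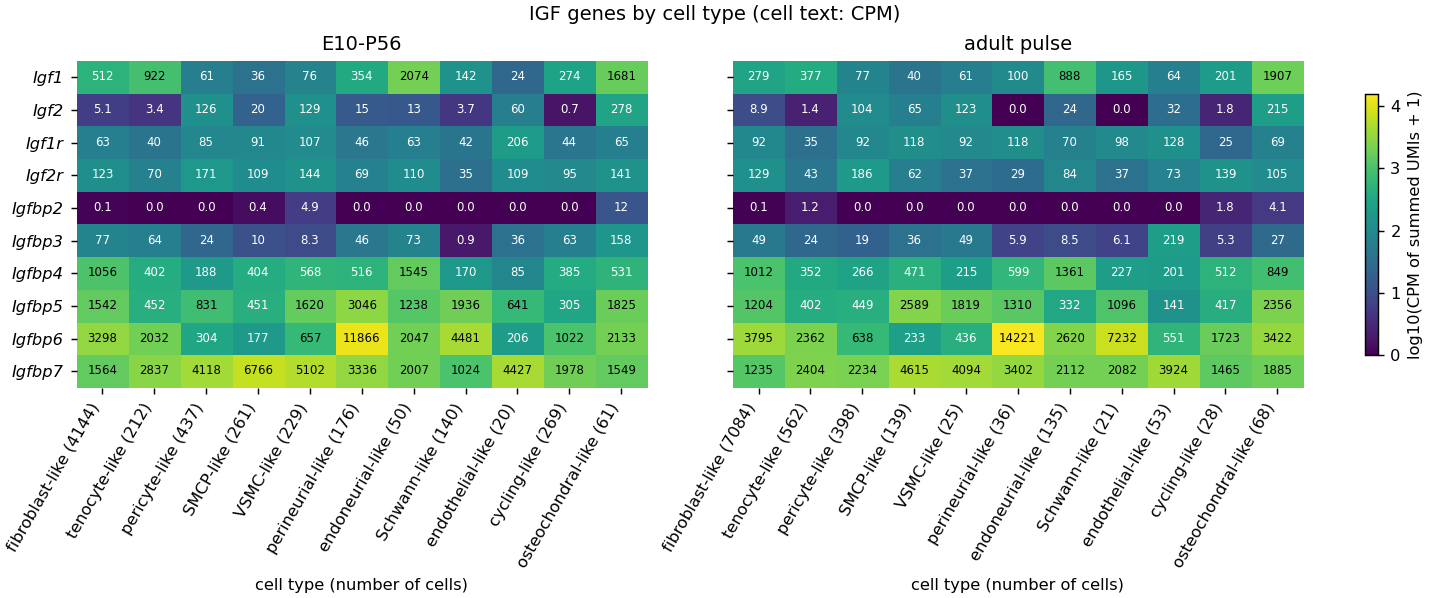
CPM of summed UMIs of each of the 10 genes (rows) in each named cell type (columns, with the number of cells) of E10-P56 and the adult pulse, coloured by log10(CPM + 1) and printed in each square. *Igfbp6* reads 11866 and 14221 in perineurial-like cells, and *Igfbp7* reads 6766 and 4615 in SMCP-like cells.

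A stretch before the transcription start is printed for *Igfbp5* and *Igfbp7*, the genes with the largest differences between the *Pi16* and *Col15a1* fibroblast subsets described further on. Both stretches are bases 60 to 31 before the RefSeq start, written 5′ to 3′ on the strand of the gene, on GRCm38.p6, chr1:72874896-72874925 on the minus strand for *Igfbp5* and chr5:77408076-77408105 on the minus strand for *Igfbp7*. Capitals mark the motif GGGCGG, the core of the sites that Sp1-type factors bind.
*Igfbp5*: ggggccgtctatttaaaagcgcctgctcga
*Igfbp7*: gctcccacggagcaccGGGCGGggcagcgg
The motif, sought on both strands in the 250 bases before each start, was found 4 times for *Igfbp7* and 0 times for *Igfbp5*. It was present in 6 of the 14 RefSeq starts of the 10 genes (42.9%), against 32.7% of all 32851 starts. The motif TATAA, sought in the same way, was present in 2 of 14 (14.3%), against 22.8% of all starts. These are matches of letters only.

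The genes lie on 7 chromosomes of GRCm38. *Igfbp2* (chr1:72824503-72852474, plus strand) and *Igfbp5* (chr1:72857932-72874884, minus strand) face each other tail to tail with 5458 bases between their ends. *Igf1* lies at chr10:87858265-87937042 (plus) and *Igf2* at chr7:142650766-142666816 (minus), *Igf1r* at chr7:67952827-68233668 (plus) and *Igf2r* at chr17:12682406-12769664 (minus). The other binding protein genes are *Igfbp3* at chr11:7206086-7213923 (minus), *Igfbp4* at chr11:99041244-99054392 (plus), *Igfbp6* at chr15:102144362-102149511 (plus) and *Igfbp7* at chr5:77349240-77408041 (minus). The ligand genes each overlap an antisense gene, *Igf1os* and *Igf2os*, and whether counting used strand is not given in the sources used here. Over all kept cells of E10-P56, *Igf1os* had 15 UMIs and *Igf2os* had 2, and the adult pulse had 3 and 1.

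*Igf1* RNA stood highest in endoneurial-like, osteochondral-like and tenocyte-like cells, followed by fibroblast-like cells, and was low in mural cells. In E10-P56 it stood at 2074 CPM (1914 to 2243) in the 50 endoneurial-like cells, 1681 CPM (1561 to 1808) in osteochondral-like cells, 922 CPM (867 to 978) in tenocyte-like cells and 512 CPM (505 to 519) in fibroblast-like cells. In the adult pulse the order began with osteochondral-like cells at 1907 CPM (1808 to 2009), followed by endoneurial-like cells at 888 CPM (832 to 947), tenocyte-like cells at 377 CPM (359 to 396) and fibroblast-like cells at 279 CPM (275 to 284). None of these neighbours had a ratio whose interval held 1, though the intervals leave out the spread between cells. Without the 1 cell with the most UMIs, E10-P56 stood at 1866 CPM in endoneurial-like and 1619 CPM in osteochondral-like cells. The adult pulse then stood at 863 and 1758 CPM. Endoneurial-like and osteochondral-like cells thus changed places between the libraries, and tenocyte-like cells followed them in both. Below fibroblast-like cells stood perineurial-like cells at 354 and 99.9 CPM and cycling-like cells at 274 and 201 CPM in E10-P56 and the adult pulse.

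Among mural cells *Igf1* was lowest in the SMCP-like ones, where E10-P56 gave 36.5 CPM (29.4 to 44.7) and the adult pulse 39.8 CPM (26.9 to 56.8), although the adult ratio of VSMC-like over SMCP-like cells, 1.54 (0.674 to 3.25), held 1. These are 7.12% and 14.2% of the fibroblast-like level, where the 4 fibroblast genes stood at medians of 4.79% and 6.65%. With every cell thinned to 1500 UMIs, the share of fibroblast-like cells with an *Igf1* UMI was 40.7% for E10-P56 against 26.3% for the adult pulse, beside 5.36% and 5.76% of SMCP-like cells. The unthinned shares in fibroblast-like cells were 71.2% and 58.4%. Endoneurial-like cells had the highest thinned share in E10-P56, 84.0%, and osteochondral-like cells in the adult pulse, 73.5%.

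*Igf2*, the imprinted ligand known for growth before birth, was sparse: 890 UMIs were counted over all kept cells of E10-P56 and 945 over those of the adult pulse. Osteochondral-like cells led at 278 CPM (231 to 333) and 215 CPM (183 to 251). Of the adult pulse, 1 osteochondral-like cell held 63 of the 159 UMIs, and the level without it was 132 CPM, near that of VSMC-like cells. Vascular smooth muscle and pericytes came next, with VSMC-like cells at 129 CPM (114 to 146) and 123 CPM (75.1 to 190) and pericyte-like cells at 126 CPM (109 to 145) and 104 CPM (88.0 to 121). The interval of the ratio between these held 1 in both libraries. Fibroblast-like cells stood at 5.06 CPM and 8.89 CPM. The thinned share of cells with an *Igf2* UMI was 17.2% and 13.3% in pericyte-like cells against 1.01% and 1.51% in fibroblast-like cells. No UMI of *Igf2* was counted in the perineurial-like or Schwann-like cells of the adult pulse, whose few cells allow levels of up to 21.7 and 22.6 CPM.

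The ligands differed in pericyte-like cells, while osteochondral-like cells were high for both. In E10-P56 and the adult pulse, osteochondral-like cells stood at 1681 and 1907 CPM for *Igf1* and at 278 and 215 CPM for *Igf2*. Pericyte-like cells stood at 11.9% and 27.5% of the fibroblast-like level for *Igf1* and at 24.9-fold and 11.7-fold that level for *Igf2*. In the adult pulse, the top pericyte-like cell held 38 of 117 *Igf1* UMIs, and the level fell from 76.7 to 52.7 CPM without it. The fibroblast genes *Pdgfra*, *Dpt*, *Pi16* and *Clec3b* stood at 4.72% to 9.99% of their fibroblast-like levels in pericyte-like cells of E10-P56. The adult pulse gave 15.4% to 17.6%.

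*Igf1r*, the signalling receptor, varied less between types than either ligand. Among types of E10-P56 its level ran from 40.2 CPM in tenocyte-like cells to 206 CPM (120 to 329) in the 20 endothelial-like cells, the latter from 17 UMIs. In the adult pulse it ran from 24.7 CPM in cycling-like cells to 128 CPM (84.8 to 184) in endothelial-like cells. The next types in the adult pulse, SMCP-like at 118 CPM and perineurial-like at 118 CPM, could not be told from endothelial-like cells, since the intervals of the ratios held 1. The sort was meant to leave endothelial cells out, so the few that were named here are those that passed the gate. Fibroblast-like cells stood at 63.4 CPM (61.1 to 65.9) in E10-P56 and 91.9 CPM (89.4 to 94.4) in the adult pulse, and tenocyte-like cells at 40.2 and 34.9 CPM.

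*Igf2r*, which also carries lysosomal enzymes that bear mannose 6-phosphate, was highest in pericyte-like cells of both libraries at 171 CPM (151 to 193) and 186 CPM (165 to 209). Fibroblast-like cells stood at 123 CPM (120 to 127) and 129 CPM (126 to 132). The lowest levels were 34.6 CPM in Schwann-like cells of E10-P56 and 29.4 CPM in perineurial-like cells of the adult pulse, the latter from 5 UMIs. The adult cycling-like level of 139 CPM fell to 97.6 CPM without 1 cell. Next in E10-P56 came VSMC-like, osteochondral-like, fibroblast-like and endoneurial-like cells, where each ratio of a type to the one after it had an interval that held 1, while that of VSMC-like over fibroblast-like cells was 1.17 (1.04 to 1.31).

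**Figure D2:**
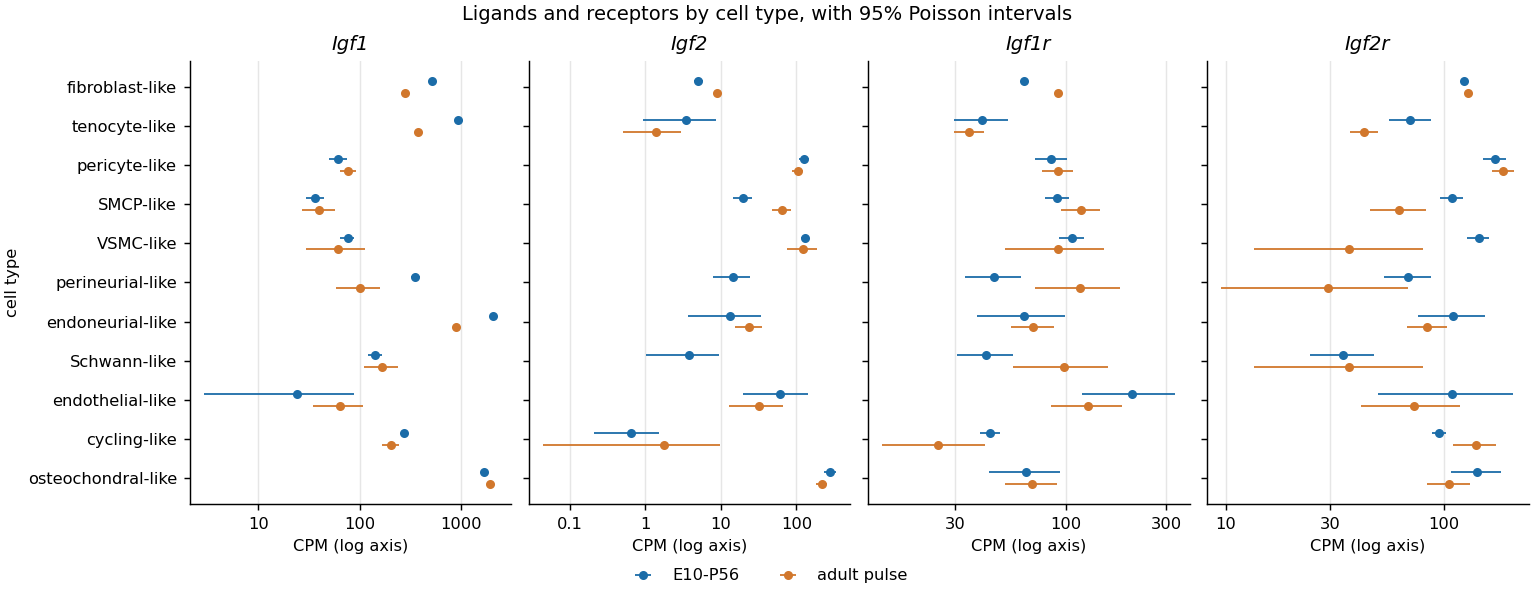
CPM on a log axis of *Igf1*, *Igf2*, *Igf1r* and *Igf2r* in each named cell type of E10-P56 and the adult pulse, with exact 95% Poisson intervals for counting error. *Igf1* spans 24.2 to 2074 CPM over the types of E10-P56, and *Igf2* is highest in osteochondral-like cells of both libraries.

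Of the binding proteins, *Igfbp2* was close to absent from these cells. It had 22 UMIs over all kept cells of E10-P56 and 13 over those of the adult pulse, of which 5 and 3 fell in osteochondral-like cells. A further 10 of the 22 were in VSMC-like cells. It was left out of the ratios for want of counts.

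*Igfbp3*, the main carrier of IGFs in blood, was unevenly spread within fibroblast-like cells. The mean level was 77.4 CPM (74.8 to 80.1) in E10-P56 and 49.4 CPM (47.6 to 51.2) in the adult pulse, yet only 6.78% and 3.50% of thinned cells had a UMI. In E10-P56 the 10% of fibroblast-like cells with the most UMIs of it held 85.6% of them. Before thinning, 8.67% of the fibroblast-like cells of the adult pulse had any UMI of it. Osteochondral-like cells led in E10-P56 at 158 CPM (122 to 200) and stood at 27.0 CPM (16.5 to 41.8) in the adult pulse. Endothelial-like cells led in the adult pulse at 219 CPM (161 to 290) and stood at 36.3 CPM from 3 UMIs in E10-P56. The value of 45.8 CPM in perineurial-like cells of E10-P56 was 7.49 CPM without 1 cell.

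*Igfbp4*, an inhibitor of IGF action that the protease PAPP-A cuts, had the same types first and second in both libraries. Endoneurial-like cells stood at 1545 CPM (1407 to 1692) and 1361 CPM (1291 to 1433), and fibroblast-like cells came second at 1056 CPM (1046 to 1066) and 1012 CPM (1004 to 1020). The ratio of the first to the second was 1.46 (1.33 to 1.60) and 1.34 (1.28 to 1.42). Tenocyte-like cells were lower, at 402 and 352 CPM, and pericyte-like cells lower again at 188 and 266 CPM. A thinned share of 71.0% and 68.2% of fibroblast-like cells had a UMI of it.

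*Igfbp5*, which binds to extracellular matrix, was widespread and changed its order between the libraries. In E10-P56 it was highest in perineurial-like cells at 3046 CPM (2937 to 3159), followed by Schwann-like cells at 1936 CPM, osteochondral-like cells at 1825 CPM and VSMC-like cells at 1620 CPM. In the adult pulse SMCP-like cells stood first at 2589 CPM (2476 to 2707) and osteochondral-like cells second at 2356 CPM (2246 to 2469). SMCP-like cells of E10-P56 stood at 451 CPM (425 to 477), below fibroblast-like cells at 1542 CPM. Fibroblast-like cells of the adult pulse were at 1204 CPM (1195 to 1213). The Schwann-like level of the adult pulse, from 21 cells beside 140 in the other library, was 1096 CPM (941 to 1269).

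*Igfbp6*, which binds IGF2 in preference to IGF1, was highest in cells of the nerve sheath. Perineurial-like cells, which wrap nerve fascicles, stood at 11866 CPM (11650 to 12086) in E10-P56 and 14221 CPM (13660 to 14799) in the adult pulse, 2.65-fold and 1.97-fold the next type. That next type was Schwann-like cells in both, at 4481 and 7232 CPM, and fibroblast-like cells followed at 3298 and 3795 CPM. The Schwann-like cells also had 1732 and 1819 CPM of the 7 perineurial markers together, beside 5475 and 4660 CPM in perineurial-like cells, and the part of this in their *Igfbp6* was not tested. SMCP-like cells were lowest at 177 CPM (161 to 194) and 233 CPM (200 to 271). In E10-P56 endothelial-like cells stood at 206 CPM (120 to 329) from 17 UMIs, an interval that held the SMCP-like level. A UMI of *Igfbp6* was found in 100% and 97.2% of thinned perineurial-like cells and in 12.3% and 10.1% of thinned SMCP-like cells.

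*Igfbp7*, a secreted protein related to the IGF binding proteins that binds IGFs weakly and is known from vessel walls, was highest in SMCP-like cells, followed by VSMC-like cells, whose adult ratio over endothelial-like cells, 1.04 (0.942 to 1.16), held 1. SMCP-like cells stood at 6766 CPM (6666 to 6868) and 4615 CPM (4463 to 4771), VSMC-like cells at 5102 and 4094 CPM, endothelial-like cells at 4427 and 3924 CPM, and pericyte-like cells at 4118 and 2234 CPM. Perineurial-like cells at 3336 and 3402 CPM and tenocyte-like cells at 2837 and 2404 CPM were below pericyte-like cells in E10-P56 and above them in the adult pulse. The 20 endothelial-like cells of E10-P56 had 7790 CPM of the 8 pericyte markers together beside 7319 CPM of their own 8, and the 8 pericyte markers stood at 1659 CPM beside 7912 CPM of their own in the adult pulse, and the part of this in their IGF gene levels was not tested. Fibroblast-like cells stood at 1564 CPM (1552 to 1576) and 1235 CPM (1226 to 1244). SMCP-like cells were 4.33-fold and 3.74-fold above fibroblast-like cells for *Igfbp7* and at 5.36% and 6.15% of their level for *Igfbp6*, the latter beside 4.79% and 6.65% for the 4 fibroblast genes.

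Set against fibroblast-like cells as a whole panel, SMCP-like cells differed at least 2-fold for 7 of the 9 genes with at least 100 UMIs in each library. The share of all genes past that fold was 23.9% and 27.4%. Of the 7, *Igf1*, *Igfbp4* and *Igfbp6* were lower and *Igf2* and *Igfbp7* higher in both. Pericyte-like cells differed for 6 of 9 in each, beside 34.2% and 29.1% of all genes, with *Igf1*, *Igfbp3*, *Igfbp4* and *Igfbp6* lower and *Igf2* higher in both. Endoneurial-like cells differed for 2 of 9 in E10-P56, beside 26.7% of all genes, and for 4 of 9 in the adult pulse, beside 16.3%, with *Igf1* and *Igf2* higher in both, *Igf2* in E10-P56 from 4 UMIs with a ratio of 2.63 whose interval, 0.710 to 6.83, held 1. Osteochondral-like cells differed for 3 of 9 beside 25.7% and for 2 of 9 beside 23.1%, and *Igf1* and *Igf2* were again the ones higher in both. Tenocyte-like cells, beside 22.2% and 19.4% of all genes, differed for 2 of 9 and 6 of 9, and all of these were lower, *Igfbp4* and *Igfbp5* in both libraries. Perineurial-like cells differed for 4 of 9 beside 26.4% and for 6 of 9 beside 43%, with *Igfbp6* and *Igfbp7* higher in both. The adult 6 include *Igf2* with 0 UMIs in perineurial-like cells, *Igfbp3* with 1 and *Igf2r* with 5, since the 100 UMIs were counted over both populations together. Endothelial-like cells differed for 8 of 9 beside 56.9% and for 7 of 9 beside 43.2%. In E10-P56 the 8 include *Igfbp3* from 3 UMIs, with a ratio of 0.469 whose interval, 0.0966 to 1.37, held 1. Cells are no replicates, so these are descriptions of 2 libraries.

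**Figure D3:**
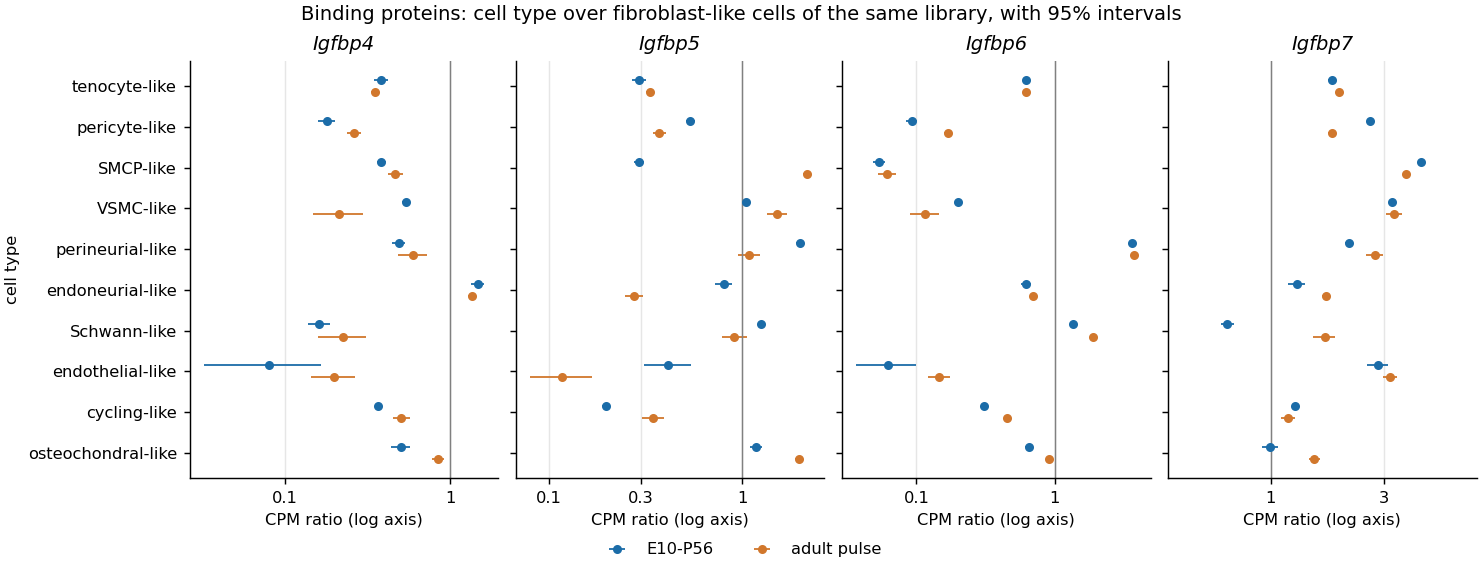
Ratio of the CPM of *Igfbp4*, *Igfbp5*, *Igfbp6* and *Igfbp7* in each other cell type to that in fibroblast-like cells, on a log axis, in E10-P56 and the adult pulse with 95% counting intervals. *Igfbp6* lies at 5.36% and 6.15% of the fibroblast-like level in SMCP-like cells, while *Igfbp7* lies 4.33-fold and 3.74-fold above it.

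Between the libraries, 0 of the 9 measured in fibroblast-like cells with 100 UMIs or more passed 2-fold, where 8.66% of 12352 genes did. Their median log2 ratio of adult pulse over E10-P56 was -0.06, and that of all genes was -0.07. The largest difference was in *Igf1*, which was 1.83-fold higher in E10-P56, with a ratio of adult pulse over E10-P56 of 0.546 (0.535 to 0.557). *Igf2* had a ratio of 1.75 and *Igf1r* of 1.45. *Igfbp5* and *Igfbp7* stood at ratios of 0.781 and 0.790, and *Igf2r*, *Igfbp4* and *Igfbp6* at 1.05, 0.958 and 1.15. The ratio of *Igfbp3* was 0.638, but with every fibroblast subset found in both libraries given equal weight its log2 ratio turned from -0.65 to 0.40. Under that weighting *Igf2r* also turned, from 0.07 to -0.19, while *Igf1* stood at -0.96 beside -0.87. That of *Igf1r* went from 0.53 to 0.15. Within the subsets named in both libraries the ratio of *Igf1r* ran from 0.973 to 1.47. The part of subset make-up in its pooled ratio was not tested.

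The lower *Igf1* of the adult pulse was also seen in each fibroblast subset named in both libraries. In the subset led by *Apoe*, *Cxcl13* and *Fgf10* it stood at 988 CPM in E10-P56 and 582 CPM in the adult pulse, and in the subset of *Clu*, *Meox1* and *Mgp* at 778 and 339 CPM. In the *Col15a1* subset it stood at 538 and 289 CPM and in the *Pi16* subset at 317 and 137 CPM. The summed level of 6 genes that respond to dissociation, *Fos* and *Jun* among them, was 10125 and 19577 CPM in the first of these subsets, 6051 and 6725 CPM in the second, 6213 and 10554 CPM in *Col15a1* cells and 6052 and 5981 CPM in *Pi16* cells, and its part in the *Igf1* ratios was not tested. Tenocyte-like and endoneurial-like cells were likewise lower in the adult pulse, while osteochondral-like cells were at 1681 and 1907 CPM.

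**Figure D4:**
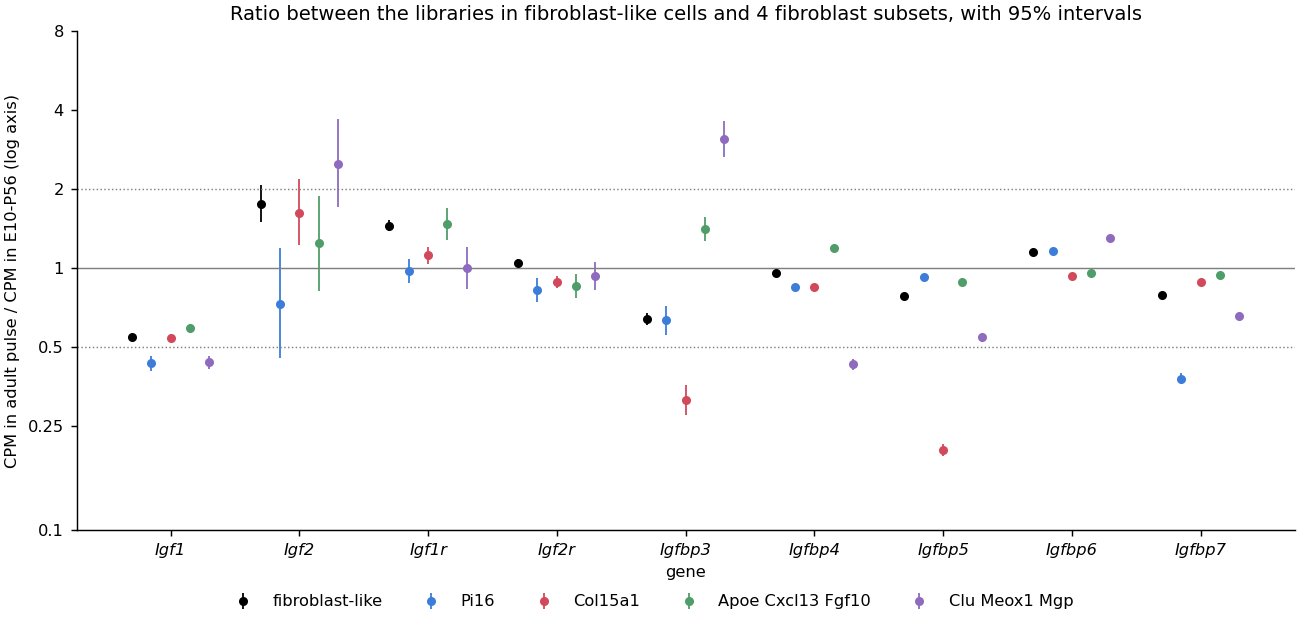
Ratio of CPM of the adult pulse over E10-P56 on a log axis for the genes counted at least 100 times, in all fibroblast-like cells and in the fibroblast subsets named in both libraries, with 95% counting intervals. In fibroblast-like cells the ratios run from 0.546 for *Igf1* to 1.75 for *Igf2*.

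Fibroblast-like cells were divided within each library into subsets named from their markers, of which *Pi16* (841 and 1433 cells), *Col15a1* (1338 and 2606), *Apoe* *Cxcl13* *Fgf10* (741 and 610) and *Clu* *Meox1* *Mgp* (388 and 773) were found in both. *Pi16* is held to mark adventitial, progenitor-like fibroblasts, and *Col15a1* fibroblasts of the tissue interior that make basement membrane. For muscle, the paper's discussion describes the *Pi16* population as enriched in the endomysium, the layer around single myofibres. Only E10-P56 had subsets named inflammatory (238 cells) and activated (61 cells), and only the adult pulse had one named *Cd55* *Stmn4* *Efemp1* (1258 cells). The remaining sub-clusters stayed unnamed.

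*Igfbp5* and *Igfbp7* parted the *Pi16* and *Col15a1* subsets in opposite directions. *Igfbp5* stood at 4095 CPM (4047 to 4144) in *Pi16* cells and 471 CPM (459 to 484) in *Col15a1* cells of E10-P56, and at 3777 CPM (3741 to 3812) and 95.2 CPM (91.0 to 99.6) in the adult pulse. The ratios of *Pi16* over *Col15a1* were 8.69 and 39.7. The first depended on the setting: its log2 value of 3.12 was 5.51 with each library clustered alone. With cells picked by their *Pi16* or *Col15a1* UMIs it was 1.67. In E10-P56 the 10% of *Col15a1* cells with the most *Igfbp5* UMIs held 77.4% of them. *Igfbp7* stood at 680 CPM (660 to 700) and 1693 CPM (1669 to 1717) in E10-P56 and at 257 CPM (248 to 266) and 1491 CPM (1474 to 1508) in the adult pulse, which gave ratios of 0.401 and 0.172. In each library the *Pi16* subset was thus the highest named subset for *Igfbp5* and the lowest for *Igfbp7*. Thinned shares gave the same order: 83.0% and 82.0% of *Pi16* cells had an *Igfbp5* UMI against 23.8% and 7.67% of *Col15a1* cells, and 54.2% and 23.6% had an *Igfbp7* UMI against 83.1% and 82.2%.

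*Igfbp5* was 1 of the 10 leading genes of the adult *Pi16* subset, and a cluster is no test of its genes. In all, 3 of 8 genes differed at least 2-fold between the subsets in E10-P56, 1 higher in *Pi16* beside 3.43% of all genes and 2 lower beside 5.12%. The adult pulse had 6 of 9, 2 higher beside 5.56% and 4 lower beside 8.44%. *Igf2r* was among the lower ones in both, at 95.9 CPM in *Pi16* and 203 CPM in *Col15a1* cells of E10-P56 and at 79.0 and 179 CPM in the adult pulse. *Igf1* stood at ratios of 0.590 and 0.475 and passed 2-fold in the adult pulse, and at a clustering resolution of 1.0 also in E10-P56, where its log2 ratio went from -0.76 to -2.39. *Igfbp4* and *Igfbp6* were above 1 in both libraries, with ratios of 1.38 and 1.38 for *Igfbp4* and 1.56 and 1.94 for *Igfbp6*. The ratio of *Igfbp3* was 1.32 and 2.65, and at the resolution of 1.0 its log2 ratio turned from 0.40 to -2.59 in E10-P56 and from 1.40 to -0.17 in the adult pulse. *Igf1r* had ratios of 0.911 and 0.794. The summed dissociation genes given above differed between these subsets in the adult pulse, 5981 against 10554 CPM, and their part in the adult ratios was not tested.

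The other subsets filled in the range. *Igfbp7* was high in *Clu* *Meox1* *Mgp* cells at 3158 and 2061 CPM and in the *Apoe* *Cxcl13* *Fgf10* subset at 2037 and 1914 CPM. The adult *Cd55* *Stmn4* *Efemp1* subset was low for it at 455 CPM and for *Igf1* at 141 CPM, and it was the highest named subset for *Igfbp6* at 5443 CPM (5401 to 5485), next to *Pi16* at 5343 CPM (5301 to 5385). That subset also had the least *Igfbp3*, 4.51 CPM (3.39 to 5.89), and the most *Igf1r*, 120 CPM (114 to 126). The *Apoe* *Cxcl13* *Fgf10* subset had the most *Igf1* of the named subsets in both libraries and the least *Igfbp6*, 1829 and 1746 CPM. The inflammatory subset of E10-P56 had 2259 CPM of *Igfbp5*, second to *Pi16*, and 95.3 CPM of *Igf1*.

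**Figure D5:**
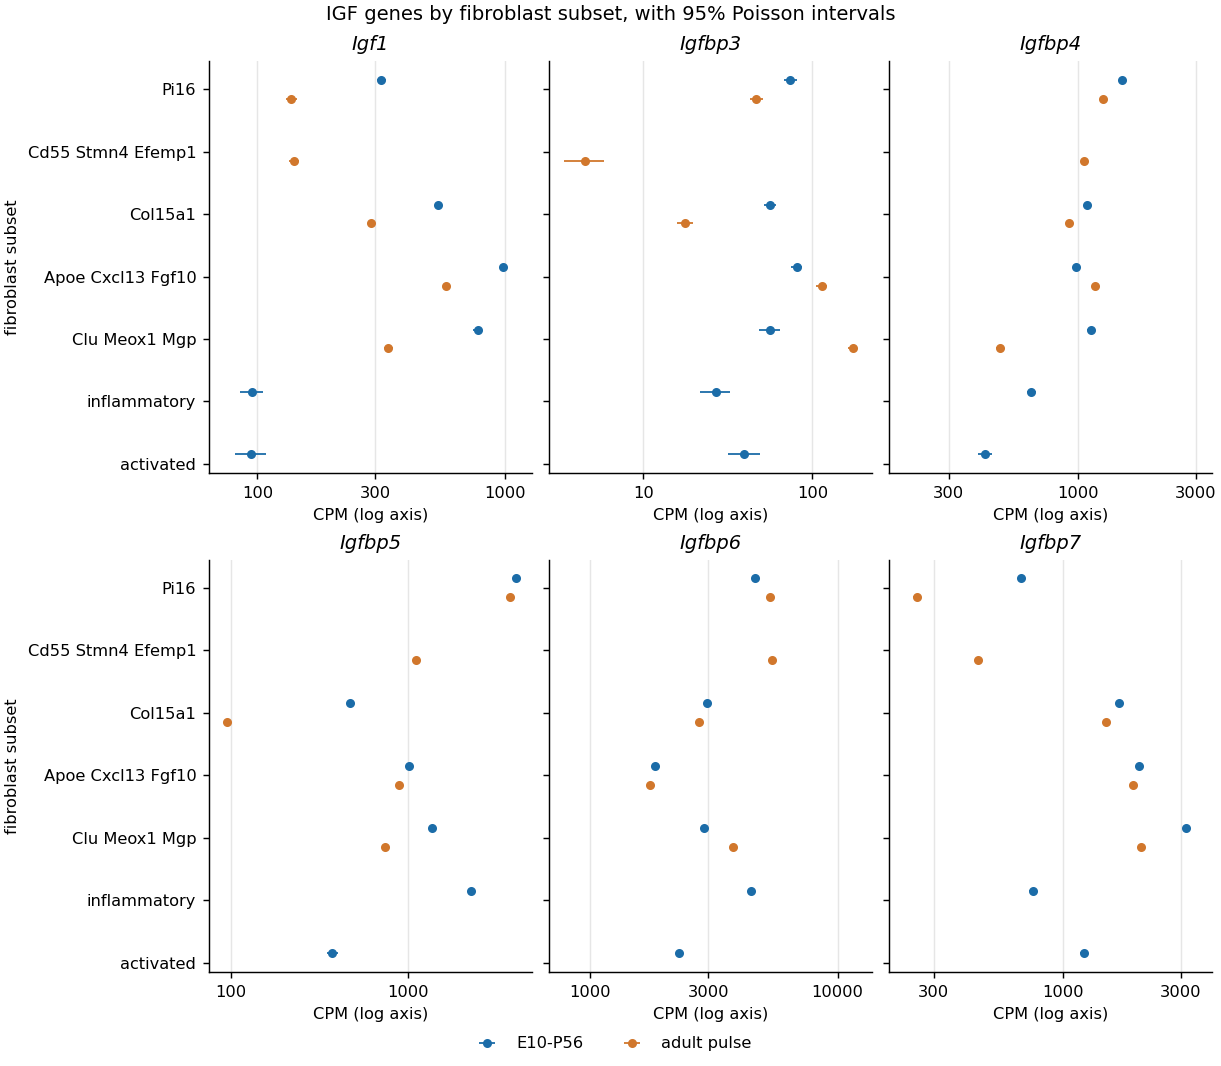
CPM on a log axis of *Igf1* and 5 binding proteins in the named fibroblast subsets of E10-P56 and the adult pulse, with exact 95% Poisson intervals for counting error. *Igfbp5* is highest in the *Pi16* subset of both libraries at 4095 and 3777 CPM, where *Igfbp7* is at its lowest among named subsets.

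Within subsets, the libraries differed at least 2-fold for 2 of 8 genes in *Pi16* cells. Of all genes, 3.84% did so there in either direction, and 1.97% were lower in the adult pulse. The 2 genes were *Igf1* with a ratio of 0.433 and *Igfbp7* with 0.378, both lower in the adult pulse. In *Col15a1* cells 2 of 9 differed, beside 6.75% of all genes in either direction and 3.45% lower. They were *Igfbp3* at 0.314 and *Igfbp5* at 0.202. In *Apoe* *Cxcl13* *Fgf10* cells 0 of 8 did, beside 6.16% in either direction. In *Clu* *Meox1* *Mgp* cells *Igf1* at 0.436 and *Igfbp4* at 0.429 were lower beside 2.10% of all genes, and *Igf2* at 2.48 and *Igfbp3* at 3.10 higher beside 2.41%. The subsets were found in each library separately, so a subset of the same name need not hold the same cells.

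The genes were also counted together within cells. In fibroblast-like cells of the adult pulse thinned to 1500 UMIs, 16.6% of cells had UMIs of both *Igfbp5* and *Igfbp7*, where the product of their shares was 23.9%. *Igf1* and *Igfbp3* were found together in 1.67% of cells, where the product was 0.921%. In E10-P56 the pair of *Igfbp5* and *Igfbp7* was found in 36.1% of cells beside a product of 39.9%. These values pool all subsets and are a description.

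Over 34 populations and 12205 genes, the genes with the closest pattern, by Pearson's r of log2(CPM + 5), were *Bicc1*, *Mxra8* and *Ptgfr* for *Igf1* (0.834 for the first), *Ddit4l* for *Igf2* (0.826), *Mkl2* for *Igf1r* (0.836) and *Myadm* for *Igf2r* (0.701). For the binding proteins they were *Ism1* for *Igfbp3* (0.656), *Aldh1a1* for *Igfbp4* (0.822), *Adra1b* for *Igfbp5* (0.637), *Ust* for *Igfbp6* (0.874) and *Ednra* for *Igfbp7* (0.777). The populations share 2 libraries and their depth, so r is a description. *Ednra* encodes a receptor for endothelin on smooth muscle and *Aldh1a1* a retinaldehyde dehydrogenase.

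Of 32 other genes of the IGF pathway, 27 had enough UMIs in fibroblast-like cells to be compared, and 4 of these (14.8%) passed 2-fold between the libraries beside 8.66% of all genes. *Timp1*, an inhibitor of the metalloproteinases that cut IGF binding proteins among other substrates, stood at 479 CPM in E10-P56 and 40.0 CPM in the adult pulse. In *Pi16* cells it stood at 100 and 35.4 CPM, and in *Col15a1* cells at 147 and 29.3 CPM. It was among the leading genes of the activated subset, which only E10-P56 had, and the part of subset make-up in the pooled values was not tested. The PAPP-A relative *Pappa2* and the receptor adaptor *Grb14* were also lower, with ratios of 0.402 and 0.453, and *Ins2* was higher, at 0.647 and 1.82 CPM. In *Col15a1* cells, however, *Ins2* stood at 2.32 CPM in E10-P56 and 1.63 CPM in the adult pulse. In *Pi16* cells it stood at 0.301 and 0.690 CPM. All 15 genes of intracellular signalling were measured, and *Grb14* was the 1 that passed. Of the carriers, *Igfbp1* and *Igfbpl1* had no UMI in fibroblast-like cells of either library and *Igfals*, the partner of IGFBP3 in blood, had 65 and 8 UMIs there.

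Across types, 6 of the 25 with at least 100 UMIs over the types of each library were at least 4-fold above fibroblast-like cells in their highest type in both, beside 14.7% of all genes. *Pik3ca*, which encodes a catalytic subunit of phosphoinositide 3-kinase, was highest in pericyte-like cells at 292 and 259 CPM, where fibroblast-like cells had 46.5 and 51.5 CPM. *Pappa2* was highest in osteochondral-like cells at 41.7 and 23.0 CPM, *Grb14* in Schwann-like cells at 73.9 and 98.0 CPM, and *Timp1* in cycling-like cells. *Stc2*, an inhibitor of PAPP-A, was highest in VSMC-like cells of E10-P56 at 14.6 CPM and in osteochondral-like cells of the adult pulse at 17.6 CPM.

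Among 10 imprinted genes, the group to which *Igf2* and *Igf2r* belong, 2 passed 2-fold between the libraries in fibroblast-like cells beside 8.66% of all genes, *Cdkn1c* with a ratio of 2.28 and *H19* with 0.467. *H19*, the non-coding neighbour of *Igf2*, was highest in osteochondral-like cells at 262 and 237 CPM, the type that was also highest for *Igf2*. *Dlk1* was highest in SMCP-like cells of E10-P56 at 564 CPM and in endoneurial-like cells of the adult pulse at 191 CPM. *Cdkn1c*, an inhibitor of the cell cycle, was highest in perineurial-like cells at 778 and 570 CPM. *Mest* stood highest in tenocyte-like cells of E10-P56 at 181 CPM and in cycling-like cells of the adult pulse at 187 CPM.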

How the data were processed

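The 2 matrices that the authors deposited hold unnormalized UMI counts by gene and barcode, made with Cell Ranger 5.0.0 (E10-P56) and 3.0.2 (adult pulse), per the file headers, on a modified mm10 genome. The labels name 10x 3' chemistry v2 or v3 without saying which library had which. The paper's methods give the v3 kit for cells of P56 muscle, without naming the adult pulse library. There were 8236 barcodes with 67460919 UMIs in E10-P56, and 9195 with 69153173 in the adult pulse. Of these, 1310 and 465 with fewer than 1500 UMIs and a further 839 and 163 over 10% mitochondrial UMIs were set aside. Features matched GENCODE M21 for 27722 of 28001 identifiers, which gave positions on GRCm38.

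Cells of both libraries were clustered together (2000 variable genes without the 52 genes kept out, which include those described, 30 principal components, 20 neighbours, Leiden resolution 0.5) and named where at least 3 markers of 1 of 14 lists passed (10% of cells, log2 fold of 1 with 5 CPM added). Fibroblast-like cells were clustered again in each library at resolution 0.5 and named from 7 lists. No doublets were removed. UMIs were summed per population as CPM with exact 95% Poisson intervals, and shares carry Clopper-Pearson intervals after thinning to 1500 UMIs. Ratios were taken for genes with at least 100 UMIs, and 2-fold counted as past the threshold. PCR duplicates are collapsed by UMI, and intervals cover counting error only. With 1 library per group no test was made. Genes were named by rule: all 10, other pathway and imprinted genes past 2-fold between libraries or with a highest type 4-fold above fibroblast-like cells in both, and the 3 most alike by correlation among genes with at least 200 UMIs. The genes and lists were chosen with earlier results of these data known. The ratio, its interval and the 2-fold rule were tested on simulated Poisson counts, without extra spread between cells, and the thinning on cells of these data. Clustering and naming were not tested in this way. Promoter sequence came from RefSeq. Python 3.11.15, numpy 2.4.6, scipy 1.17.1, pandas 2.3.3, leidenalg 0.10.2, igraph 0.11.9, scanpy 1.11.5 (Scrublet) and matplotlib 3.10.9 were used. The values of 1 pathway gene are not reported here. The embryonic, chromatin and injury data of the study were not analysed here.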

Additional observations from a re-analysis of the deposited data

Results flagged for a closer look

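*Igfbp5* was below the fibroblast-like level in SMCP-like cells of E10-P56, with a ratio of 0.292, and above it in SMCP-like cells of the adult pulse, with a ratio of 2.15. The difference was not tested, since there was 1 library per labelling time.

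*Igfbp3* stood at 236 CPM (211 to 264) in a cluster of 72 cells that was named from no list, was led by *Cxcl5* and *Cxcl3* and came from E10-P56 alone. That is above every named cell type of that library, and 22.2% of its thinned cells had a UMI of *Igfbp3*.

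*Igf1r* stood at 303 CPM (185 to 469) from 20 UMIs in 18 cells of the adult pulse that belonged to a cluster named from no list and led by *Sbspon* and *Cxcr4*, above every named cell type. The 16 cells of E10-P56 in that cluster stood at 273 CPM (164 to 426) from 19 UMIs.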

How the results depend on the processing

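Each count stayed within 1.5 times its value in most settings: 70 recomputed values of the main counts and shares stayed the same and 11 moved, and of the single-gene values 271 stayed, 85 moved and 1 reversed, where a sign change counts as a reversal only for values past 2-fold. A further 8 recomputed log2 ratios under 2-fold changed sign, of *Igf1r*, *Igf2r*, *Igfbp3* and *Igfbp4*. The number of genes with the same highest type in both libraries fell from 7 to 4 with a UMI minimum of 3000, which left 8 types named in both, and to 2 with each library clustered alone, which left 7. With each cell named by its own marker counts, 2 genes were highest in fibroblast-like cells after E10 labelling and 1 after adult labelling, and with types of at least 50 cells, a setting chosen after seeing the data, 1 was in the adult pulse, *Igfbp6*, since its perineurial-like and Schwann-like cells numbered 36 and 21. With a mitochondrial limit of 5%, 1 gene passed 2-fold between the libraries, *Igfbp3* at a log2 ratio of -1.06. At a resolution of 1.0, 6 genes in place of 3 differed between the *Pi16* and *Col15a1* subsets of E10-P56. The share of all genes was not recomputed in this or the other settings, so these counts have no background beside them. At that resolution the log2 ratio of *Igfbp3* reversed to -0.17 in the adult pulse and went from 0.40 to -2.59 in E10-P56. That of *Igf1* in E10-P56 went from -0.76 to -2.39. The causes were not tested. The share of fibroblast-like cells with an *Igf1* UMI rose with depth, to 57.6% and 39.6% at 3000 UMIs and 71.2% and 58.4% without thinning in E10-P56 and the adult pulse. The log2 ratio of *Pi16* over *Col15a1* ran from 1.67 to 5.51 for *Igfbp5* and from -1.59 to -0.94 for *Igfbp7* in E10-P56, and from 2.66 to 5.72 and from -2.99 to -1.73 in the adult pulse. That of *Igf1* between the libraries ran from -0.99 to -0.71. Scrublet's own threshold marked 0.312% and 0.163% of cells, so the 5% of highest scores were left out in its place. No replicate could be left out. No paired analysis was possible because the groups share 1 replicate number and hold 1 library each. Depth limits the types with few cells most, where a level rests on a handful of UMIs.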
